A study of Ovis aries with 36 samples.

Results

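The unoperated infraspinatus muscle of sheep given the anabolic steroid nandrolone decanoate for 22 weeks was compared with that of sheep given it for 6 weeks. The comparison rests on 6 of the 36 libraries of the series, those titled END-CC in the arms N22W and N6W, with 3 animals in each arm. The animals were 2-year-old female Swiss Alpine sheep, and in every animal, those without drug included, the infraspinatus tendon of the other shoulder had been cut and reattached 16 weeks later. Animals of N22W (numbers 2913, 2914 and 2915) received 150 mg nandrolone decanoate each week from the day of tendon release. Animals of N6W (2907, 2908 and 2909) received the same weekly dose from the day of tendon repair. CONTROL animals (2901, 2902 and 2903) received no nandrolone. END-CC is the muscle of the side without surgery, sampled 6 weeks after repair, 22 weeks after release, together with the operated muscle of the same animal (END). Length of treatment, total dose and the start before or after repair differ together between N22W and N6W and cannot be told apart. Each arm of the study was larger by its design text, and 3 animals of each are used. The groups were taken from the sample titles. The source field of the 6 samples reads "pre", while their titles and descriptions name the contralateral muscle at the end.

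Nandrolone binds the androgen receptor, a transcription factor of the nuclear receptor family that muscle fibres, their satellite cells and connective tissue cells express. In skeletal muscle androgens are known for promoting protein synthesis and fibre growth. The decanoate ester is released slowly from an intramuscular depot, so weekly injections keep the drug in the circulation. The muscle of the other shoulder shares that circulation with the operated one but keeps its tendon attachment. It therefore offers a view of treatment length in a muscle with an intact tendon, in an animal that had surgery elsewhere.

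The values are reads per gene divided by 1 size factor per library, called normalized reads here, for 25197 Ensembl gene identifiers of sheep. None of these identifiers, 0 of 25197, could be paired with a gene name in the table used here. Genes are therefore described by level, by their response to tendon release and by identifier, and the labelled muscle could not be checked against marker genes. In a biopsy of whole muscle a lower value can mean fewer cells of a type or less RNA per cell, which cannot be told apart.

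The 3 N22W libraries held 13479392 (2913), 24384515 (2914) and 21643598 (2915) reads, and the 3 N6W libraries 16595040 (2907), 16347098 (2908) and 14822448 (2909). The library of animal 2913 stood apart from the rest. On the first principal component of the 9 END-CC libraries, which held 20.4% of the variance, it lay at 49.16, and the other 8 lay between −18.87 and 9.768. Distances between pairs of libraries, measured as the median absolute log2 difference over the 12345 genes with a mean of at least 10, ran from 0.251 to 0.337 with 2913 and from 0.203 to 0.281 without it. The count of genes at an unadjusted p under 0.05, the medians by level and the medians by response to tendon release are given with and without it. No 2 libraries were copies, since the chi-square per gene between the reads of 2 libraries of an arm was 20.8 or more, where repeated draws from 1 library would lie near 1.

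**Figure D1:**
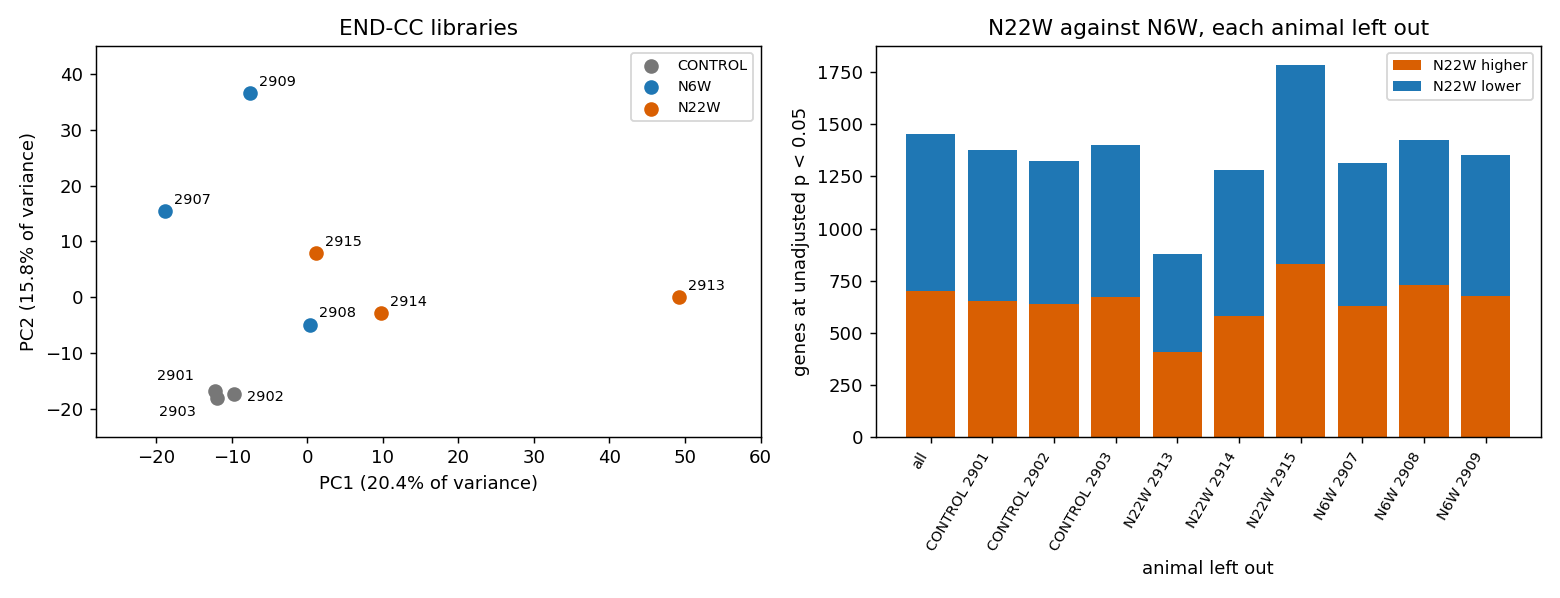
The left panel places the 9 END-CC libraries on the first 2 principal components (axes without unit, with the share of variance in percent), 1 point per animal and colour by arm. The right panel stacks the genes with N22W higher and N22W lower at an unadjusted limma p under 0.05, with all 9 animals and with each animal left out. The library of 2913 lies at 49.16 on the first component, and leaving it out takes the count from 1456 to 880.

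No gene passed the limma test between 22 and 6 weeks of nandrolone in the unoperated muscle. At a false discovery rate of 0.05 limma called 0 of the 16417 genes tested (0%), and the lowest adjusted p was 0.229. An unadjusted p under 0.05 was found for 1456 genes, 8.87% of those tested, of which 698 were higher in N22W (4.25%) and 758 lower (4.62%). The edgeR test on the recovered reads also called 0 genes, with 1358 at an unadjusted p under 0.05. DESeq2 on the same reads called 67 genes, 2 with higher and 65 with lower values in N22W, among 2091 genes to which it gave an adjusted p (3.2%). The other 14326 genes got none, and all 67 had a mean of 728.3 normalized reads or more, so this split covers abundant genes only. Without its filter on low means DESeq2 called 25 of 16401 genes, 1 higher and 24 lower in N22W (0.152%). Without animal 2913 limma again called 0 genes, and 880 genes (5.36%) had an unadjusted p under 0.05. The p-values set the difference between the arms against the spread between the animals sampled.

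The direction of the differences moved when libraries were scaled by their read totals, and not with TMM scaling. With the authors' size factors the median log2 difference over all genes was 0.03. When each library was instead scaled by its read total, it was 0.20, and 2001 genes had an unadjusted p under 0.05 with N22W higher against 211 with N22W lower. TMM scaling gave a median of 0.03, with 697 genes higher and 756 lower in N22W at an unadjusted limma p under 0.05. The normalized values of a library summed to 17300000, 20010000 and 19220000 in N22W and to 22130000, 20240000 and 21630000 in N6W. Each N22W sum thus lay below each N6W sum. Differences below are on the authors' scale unless stated otherwise.

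Some genes separated the arms completely. In 1144 genes (6.97%) the lowest N22W library lay above the highest N6W library, and in 1050 genes (6.4%) the highest N22W library lay below the lowest N6W library. A difference of at least 2-fold came with this separation in 262 genes higher in N22W (1.6%) and in 102 genes lower (0.621%). Scaled by read totals, 2830 genes were separated with N22W higher and 332 with N22W lower, a balance unlike the near-even one on the authors' scale. These counts are a description of 6 libraries. None of the genes passed the limma test, and all 67 genes called by DESeq2 were among them.

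The 4 genes described next were taken as the smallest unadjusted p in each direction among genes with separated arms and a mean of at least 10 over the 6 libraries, 891 higher and 934 lower in N22W. They were chosen by the contrast they are shown for, so their p-values in it describe that choice. Their functions are not given by the files, and their identifiers are printed as deposited.

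ENSOARG00000010709 had 124.5, 65.64 and 101.2 normalized reads in the N22W animals 2913, 2914 and 2915. It had 36.01, 33.43 and 24.81 in the N6W animals 2907, 2908 and 2909, and 28.54, 45.42 and 28.28 in CONTROL. All 3 N22W libraries lay above all 6 others, and N6W and CONTROL overlapped. Behind these values stood 80 to 114 reads per N22W library and 17 to 27 per N6W library. The means were 97.1 ± 29.6 in N22W and 31.4 ± 5.87 in N6W (SD, n = 3 each), a log2 difference of 1.57 (SE 0.30, limma adjusted p = 0.462). Against CONTROL the log2 difference was 1.47 for N22W (limma adjusted p = 0.278) and −0.10 for N6W (limma adjusted p = 0.972).

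ENSOARG00000004819 had 112.9, 121.4 and 119.9 normalized reads in N22W, 60.02, 55.71 and 74.42 in N6W and 65.64, 65.06 and 69.69 in CONTROL. N22W averaged 118 ± 4.54, N6W 63.4 ± 9.80 and CONTROL 66.8 ± 2.52 (SD, n = 3 each). The N22W libraries lay above all 6 others, and the range of N6W enclosed that of CONTROL. The log2 difference between N22W and N6W was 0.90 (SE 0.17, limma adjusted p = 0.462).

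ENSOARG00000012593 had the smallest p of the genes with separated arms. It stood at 112.9, 128 and 115.4 normalized reads in N22W and at 262.7, 237.7 and 271.4 in N6W, with CONTROL in the gap at 190.3, 180.5 and 137.4. No 2 of the 3 arms overlapped. N22W averaged 119 ± 8.09, CONTROL 169 ± 28.1 and N6W 257 ± 17.5 (SD, n = 3 each), so N22W was below and N6W above the untreated arm. The log2 difference between N22W and N6W was −1.11 (SE 0.15, limma adjusted p = 0.229). It was −0.50 between N22W and CONTROL (limma adjusted p = 0.39) and 0.61 between N6W and CONTROL (limma adjusted p = 0.578).

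ENSOARG00000007446 had the same order of arms. Its values were 505.7, 572.7 and 460 normalized reads in N22W, 645.9, 709.5 and 768.6 in CONTROL and 1043, 801 and 989.3 in N6W, again without overlap between any 2 arms. The means were 513 ± 56.7 in N22W and 944 ± 127 in N6W (SD, n = 3 each), a log2 difference of −0.88 (SE 0.13, limma adjusted p = 0.229). The differences from CONTROL were −0.47 for N22W (limma adjusted p = 0.347) and 0.41 for N6W (limma adjusted p = 0.643).

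The N6W animals had also been sampled before surgery, in libraries scaled together with their END-CC libraries. ENSOARG00000012593 ranged there from 81.81 to 134.1 normalized reads, below the 237.7 to 271.4 of the same animals in END-CC. ENSOARG00000004819 ranged from 92.62 to 137.6, above its 55.71 to 74.42 in END-CC. ENSOARG00000007446 (817.3 to 973.2 before surgery) and ENSOARG00000010709 (27.39 to 42) overlapped with their END-CC values. The earlier biopsy came from the shoulder that was then operated, so side, time and drug cannot be told apart in these values. The N22W libraries from before surgery (PRE) belong to another set, scaled apart: 8859 genes (54%) were separated with N22W above N6W at PRE and 131 (0.798%) with N22W below. Set and arm cannot be told apart there, and no comparison of N22W with N6W before treatment was made. CONTROL and N22W share a set at PRE, before the drug. There ENSOARG00000004819 averaged 205 in N22W (132.8 to 252.8) and 112 in CONTROL (80.79 to 146). For N22W and CONTROL the means were 96.8 and 141 in ENSOARG00000012593, 691 and 816 in ENSOARG00000007446 and 81.5 and 90.9 in ENSOARG00000010709. All but ENSOARG00000010709 thus had the order of END-CC already at PRE. The ranges of these arms overlapped in each gene, and the difference at PRE was not tested.

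**Figure D2:**
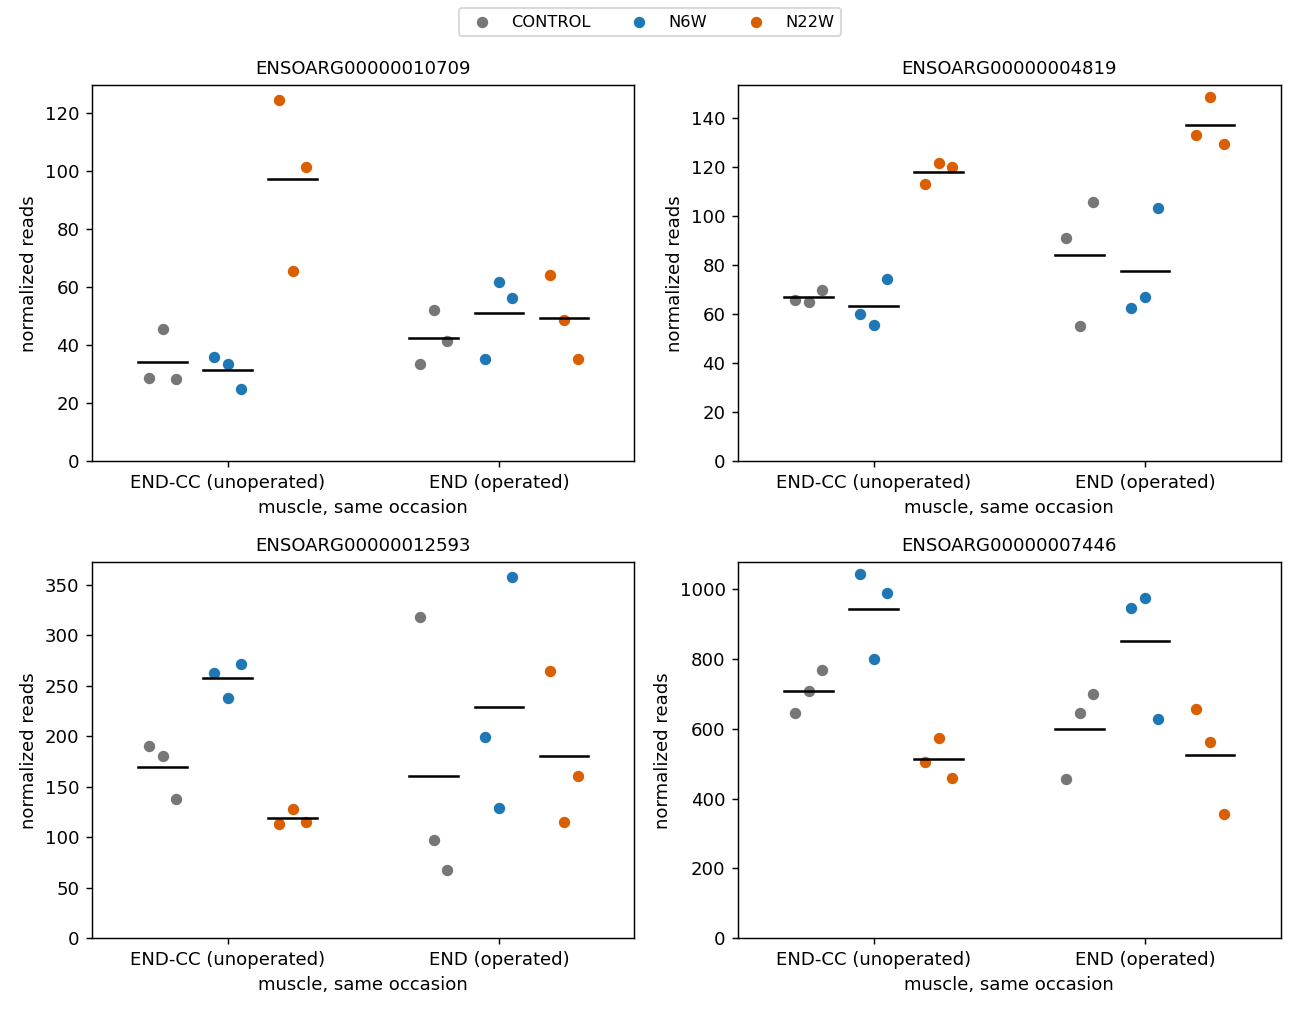
Normalized reads (linear axis from 0) of the 4 genes in unoperated (END-CC) and operated (END) muscle, 1 point per animal and a black bar at the mean of 3 animals of each arm. In END-CC the N22W points of the upper genes lie above all others, and those of the lower genes lie below all others. In END the arms N22W and N6W overlap for ENSOARG00000010709, ENSOARG00000012593 and ENSOARG00000007446.

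The level of a gene went together with the direction of its difference. Genes were put into classes by their mean over the 9 END-CC libraries. Among the 1556 genes with a mean over 1000 normalized reads, 253 had an unadjusted p under 0.05 with N22W lower (16.3%) and 17 with N22W higher (1.09%), against 4.62% and 4.25% over all genes. Scaled by read totals instead, the split of this class turned round, with 68 lower (4.37%) and 168 higher (10.8%), against 1.29% and 12.2% over all genes. With TMM scaling it did not, with 255 lower (16.4%) and 17 higher (1.09%), against 4.6% and 4.25% over all genes. On the authors' scale 26.9% of the genes of this class had a higher mean in N22W, against 53.9% of all genes. The arms were separated with N22W lower in 266 of them (17.1%) and with N22W higher in 34 (2.19%), against 6.4% and 6.97% over all genes. Genes with low values lay the other way: of 4072 genes with a mean under 10, 5.48% were higher and 1.47% lower at an unadjusted p under 0.05. Of 4791 genes from 10 to 100, 4.97% were higher and 1.69% lower, and of 5998 genes from 100 to 1000, 3.67% were higher and 6.07% lower. With read totals the split from 100 to 1000 also turned round, to 17.4% higher and 1.23% lower, and it was 10.6% and 0.584% from 10 to 100 and 6.95% and 1.01% under 10, against the same 12.2% and 1.29% over all genes.

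The median log2 difference between N22W and N6W was 0.20 under 10, 0.11 from 10 to 100, −0.01 from 100 to 1000 and −0.12 over 1000. Median SDs of log2 values among the 3 animals of an arm over 1000 were 0.173 in N22W, 0.155 in N6W and 0.133 in CONTROL. Averaged over the class, log2 values were 11.17, 11.32 and 11.33 in N22W, 11.43, 11.37 and 11.43 in N6W and 11.41, 11.36 and 11.41 in CONTROL. Each N22W library lay below each N6W and each CONTROL library. In the class under 10 the averages were 1.859, 1.678 and 1.665 in N22W, 1.459, 1.633 and 1.505 in N6W and 1.614, 1.643 and 1.508 in CONTROL, and each N22W library lay above each of the other 6.

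Library 2913 was the most extreme of the 9 in both classes. Without it the median was −0.07 over 1000, 0.01 from 100 to 1000, 0.06 from 10 to 100 and 0.12 under 10, and 8.03% of the genes over 1000 were lower in N22W at an unadjusted p under 0.05 against 1.41% higher. With read totals as the scale the median of the class over 1000 changed sign to 0.07, and that of the class under 10 was 0.30, beside 0.20 over all genes. Relative to all genes the medians of these classes were then −0.14 and 0.09, against −0.15 and 0.17 with the authors' size factors.

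The number of genes detected was also higher in N22W. Values above 0 were found for 16164, 16374 and 16367 genes in N22W and for 15562, 15987 and 15495 in N6W, and the arms did not overlap. At an equal depth of 13479392 reads the numbers were 16164, 15631 and 15728 in N22W and 15289, 15716 and 15374 in N6W, and the arms overlapped. The most abundant transcript took 34, 33.4 and 29.9% of the reads in N22W and 30.3, 30.5 and 27.5% in N6W, with overlapping ranges. The part of library depth and of this transcript in the pattern by level was not tested.

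**Figure D3:**
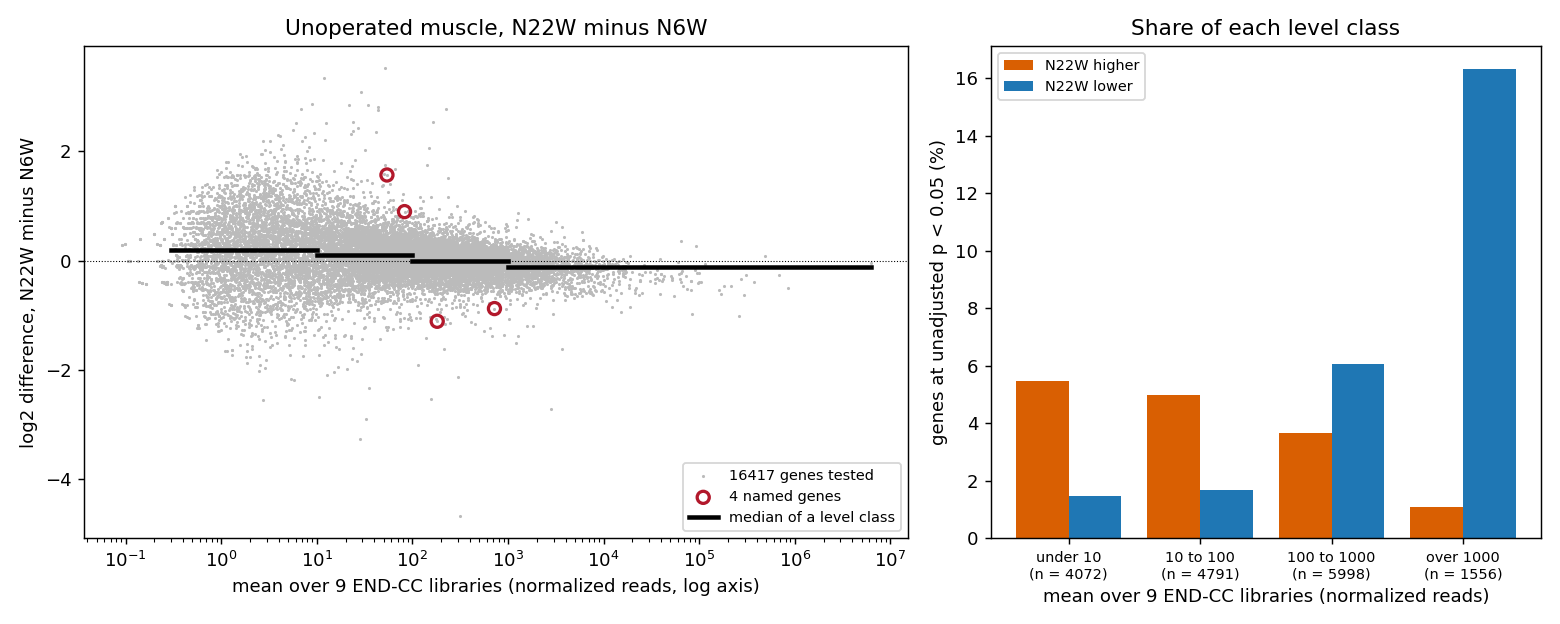
The left panel plots the log2 difference between N22W and N6W in END-CC for 16417 genes against their mean over 9 libraries (normalized reads, log axis), with black bars at the median of each level class and rings around the 4 named genes. The right panel gives the percentage of each class at an unadjusted limma p under 0.05 with N22W higher or lower. On the authors' scale the bars for N22W lower grow from 1.47% under 10 to 16.3% over 1000, while scaling by read totals gives 4.37% lower over 1000.

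Genes that answer to tendon release were examined as a group of known behaviour in this muscle. The lists came from the PRE and TR libraries of the CONTROL animals, which are in neither arm compared: TR is the operated muscle at repair, after 16 weeks without tendon attachment and without drug. With the animal as a block, limma called 986 genes that rose over release (6.01%) and 1270 that fell (7.74%) at a false discovery rate of 0.05, with median log2 changes of 1.12 and −0.59. The END-CC muscle had not been released.

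In END-CC most of the genes that fell over release had lower values in N22W than in N6W on the authors' scale (79.8%, and 47.1% when scaled by read totals), although limma called none of them. DESeq2 called 42 of them, 8.38% of the 501 to which it gave an adjusted p, against 3.2% over all genes, and 12 without its filter on low means (0.946%, against 0.152%). Of the 1270 genes, 20.2% had a higher mean in N22W, against 53.9% of all genes tested, and the median log2 difference was −0.17, against 0.03. At an unadjusted p under 0.05, 254 were lower (20%) and 15 higher (1.18%), against 4.62% and 4.25% over all genes. The arms were separated with N22W lower in 275 of them (21.7%) and with N22W higher in 15 (1.18%), against 6.4% and 6.97% over all genes. With read totals these counts were nearly even, at 76 lower (5.98%) and 50 higher (3.94%), beside 1.29% and 12.2% over all genes. Separated on that scale were 90 with N22W lower and 86 with N22W higher, beside 332 and 2830 of the 16417 genes tested. With TMM scaling 255 were lower (20.1%) and 16 higher (1.26%) at an unadjusted p under 0.05. On the authors' scale the 986 genes that rose over release lay the other way, with a median of 0.20 and 71% higher in N22W. At an unadjusted p under 0.05, 70 were higher (7.1%) and 13 lower (1.32%). The arms were separated with N22W higher in 95 of them (9.63%) and lower in 11 (1.12%), against 6.97% and 6.4% over all genes. Of the genes that rose, limma and DESeq2 called 0 in END-CC.

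Averaged over the genes that fell over release, log2 values were 8.669 (2913), 8.804 and 8.836 in N22W, 8.968, 8.943 and 8.923 in N6W and 8.903, 8.842 and 8.983 in CONTROL. All 3 N22W libraries lay below all 6 others, and CONTROL overlapped with N6W. Averaged over the genes that rose, the values were 6.075 (2913), 5.563 and 5.613 in N22W, 5.531, 5.603 and 5.535 in N6W and 5.638, 5.697 and 5.391 in CONTROL. Here 2913 alone lay above the other 8, and the other 2 N22W libraries lay within the range of CONTROL.

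Leaving out library 2913 moved the list that rose more than the list that fell. Without it the genes that fell over release had a median of −0.11. At an unadjusted p under 0.05, 135 were lower (10.6%) and 10 higher (0.787%), against 2.88% and 2.48% over all genes. The genes that rose had a median of 0.06, with 32 higher (3.25%) and 26 lower (2.64%), beside 2.48% and 2.88% over all genes. With each of the 6 animals left out in turn, the median of the genes that fell ran from −0.20 to −0.11 and that of the genes that rose from 0.06 to 0.29. Scaled by read totals, the genes that fell had a median of 0.01, so their direction against 0 changed, and the median was −0.19 relative to that of all genes. The genes that rose then had a median of 0.37, which is 0.17 relative to all genes.

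The list and the level overlap, since 409 of the 1556 genes over 1000 normalized reads were among those that fell over release. Within this class the genes that fell had a median log2 difference of −0.23, the 1105 genes in neither list −0.09 and the 42 genes that rose 0.08. From 100 to 1000 the corresponding medians were −0.136, 0.00546 and 0.175, and from 10 to 100 they were −0.142, 0.102 and 0.247. Under 10 normalized reads the 42 genes that fell over release had a median of −0.0715 and the 206 that rose 0.185, beside 0.206 in neither list. In all 4 classes the genes that fell over release had a lower median than genes in neither list, and in 3 of 4, not under 10, the genes that rose had a higher one. Without 2913 the medians of the genes that rose were 0.00599 over 1000, 0.0447 from 100 to 1000, 0.0972 from 10 to 100 and 0.0224 under 10, and those of the genes that fell −0.158, −0.0877, −0.118 and −0.0587. The 42 genes that rose and lie over 1000 had medians from −0.0102 (without 2908) to 0.189 (without 2914). The 42 genes that fell and lie under 10 had one of 0.00846 without 2915 and of 0.0493 with read totals.

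Against CONTROL in END-CC, the genes that fell over release had a median log2 difference of −0.11 in N22W and of 0.04 in N6W. For the genes that rose the medians were 0.18 and −0.02. The 2 comparisons share the CONTROL libraries, and the lists come from earlier libraries of these same CONTROL animals. In the operated muscle (END) of the same animals, the genes that fell again had a lower median in N22W than in N6W (−0.15), and the genes that rose had a median of −0.01.

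**Figure D4:**
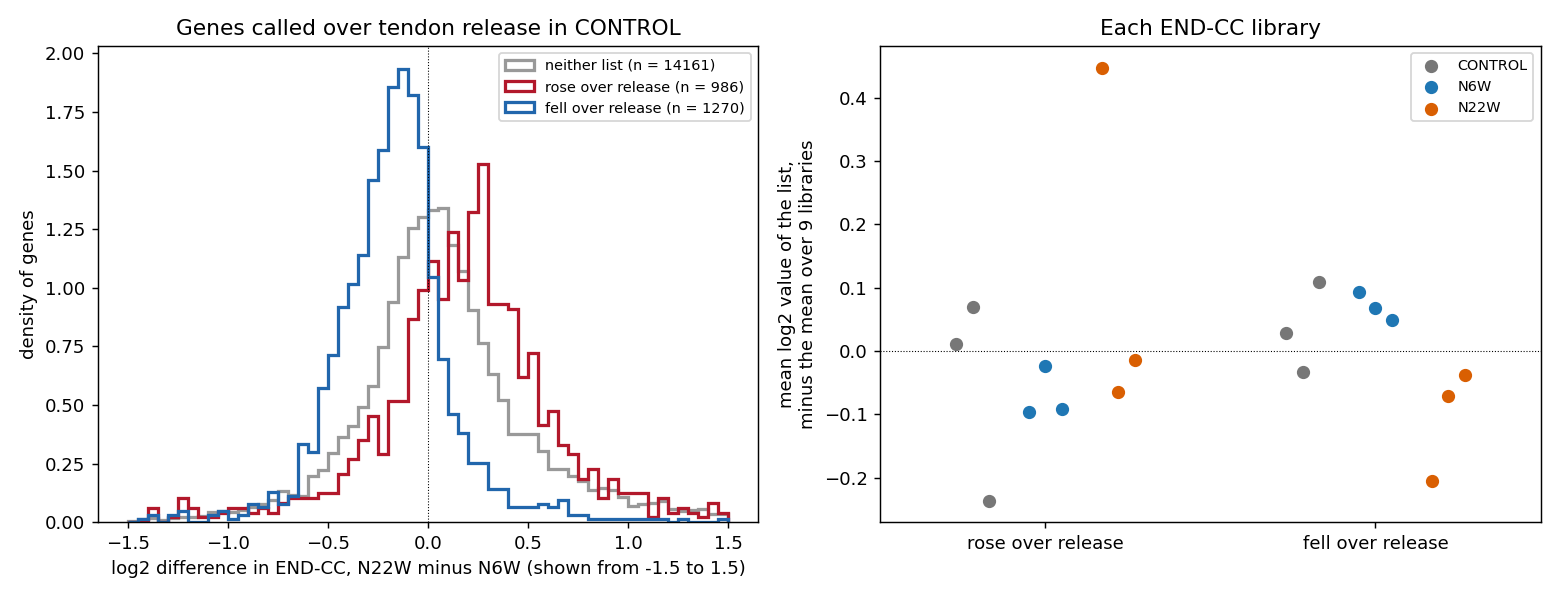
The left panel gives the distribution (density of genes) of the log2 difference between N22W and N6W in END-CC for genes that rose, fell or were in neither list over release in CONTROL. The right panel gives the mean log2 value of each list in each END-CC library after subtraction of the mean over 9 libraries, 1 point per animal. On the authors' scale the N22W points of the genes that fell all lie below the other 6 (their median difference turns to 0.01 with read totals), while for the genes that rose the point of 2913 alone stands out.

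The untreated arm was used to see which of the treated arms stood apart. In 713 genes (4.34%) the 3 N22W libraries lay outside all 6 others, 305 above (1.86%) and 408 below (2.49%). The N6W libraries lay outside the other 6 in 553 genes (3.37%), 260 above (1.58%) and 293 below (1.78%). The CONTROL libraries did so in 572 genes (3.48%), 293 above (1.78%) and 279 below (1.7%). Between arms of 3 animals each the numbers were thus of the same order, and a difference between them was not tested. Among the 2194 genes that separated N22W from N6W (13.4%), the CONTROL mean lay between the arms in 1393 (63.5%), past N22W in 318 (14.5%) and past N6W in 483 (22%). Over all genes these shares were 35.2%, 30.6% and 34.2%. The choice of separated genes by itself widens the gap in which CONTROL can lie.

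A slope over 0, 6 and 22 weeks of nandrolone gave a similar count. Limma called 0 genes (0%) with a lowest adjusted p of 0.231, and 1512 genes (9.21%) had an unadjusted p under 0.05, 650 with a positive slope (3.96%) and 862 with a negative one (5.25%). The slope shares its N22W and N6W libraries with the comparison above. By edgeR 0 genes were called, with 1577 at an unadjusted p under 0.05. DESeq2 called 153 of the 10988 genes to which it gave an adjusted p, 21 with a positive and 132 with a negative slope. ENSOARG00000010709 had a slope of 0.07 per week on the log2 scale (SE 0.01, limma adjusted p = 0.243) and ENSOARG00000004819 one of 0.04 (limma adjusted p = 0.262). ENSOARG00000012593 and ENSOARG00000007446, in which CONTROL lay between the treated arms, had slopes of −0.03 each (limma adjusted p = 0.474 and 0.401). The nearest comparisons of single arms with CONTROL in END-CC also gave 0 genes in limma, with 1499 (N22W) and 1140 (N6W) genes at an unadjusted p under 0.05.

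The operated muscle of the same 6 animals was set beside the unoperated one. In END limma called 0 genes between N22W and N6W (0%), with 1051 at an unadjusted p under 0.05 (6.4%), 619 higher (3.77%) and 432 lower (2.63%) in N22W. The arms were separated in 1180 genes with N22W higher (7.19%) and in 737 with N22W lower (4.49%). On both sides N22W was higher in 204 genes, which is 17.8% of those separated in END-CC and 17.3% of those in END, and lower in 163 genes (15.5% and 22.1%). The arms were separated in opposite directions in 9 and 10 genes. Genes separated in END-CC with N22W higher had a median log2 difference of 0.49 there and 0.24 in END, and those with N22W lower −0.41 and −0.21. These genes were chosen by their END-CC values, so larger differences in END-CC than in END follow at least partly from that choice. Both sides come from the same animals, so an animal that differs for any reason adds to both. Across the 16417 genes, which are not independent replicates, the differences of the sides had a Pearson correlation of 0.36 and a Spearman correlation of 0.37, and these were 0.52 and 0.49 over the 12345 genes with a mean of at least 10.

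Whether the arms differed more on one side than on the other was tested within animals, as END minus END-CC. Limma called 0 genes (0%), the lowest adjusted p was 0.907, and 684 genes had an unadjusted p under 0.05 (4.17%), 335 higher (2.04%) and 349 lower (2.13%). The edgeR test called 0, with 657 at an unadjusted p under 0.05. ENSOARG00000010709 had separated arms in END-CC (limma adjusted p = 0.462). In END its arms overlapped, with 64.12, 48.68 and 35.1 normalized reads in N22W and 35.36, 61.57 and 56.32 in N6W. Its log2 difference was −0.05 in END, and the test of the sides gave −1.62 (SE 0.37, limma adjusted p = 0.974), which did not pass. The gene was chosen for its END-CC values, which enter that test, so the size of its result also describes the choice.

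The other 3 genes had the same sign on both sides. ENSOARG00000004819 had 133.1, 148.6 and 129.4 normalized reads in N22W and 62.3, 67.05 and 103.4 in N6W in END, again with N22W above N6W in every library (log2 difference 0.85, limma adjusted p = 0.757). ENSOARG00000007446 had 657.7, 562.4 and 355.7 in N22W and 947.1, 974.2 and 629.4 in N6W in END, where 1 pair of values crossed (log2 difference −0.71, limma adjusted p = 0.757). ENSOARG00000012593 had 264.2, 115.3 and 160.8 in N22W and 199.5, 128.6 and 357.8 in N6W, with overlapping arms (log2 difference −0.30, limma adjusted p = 0.937).

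Genes whose release change differs under nandrolone were looked up in the unoperated muscle as well. A fit over all 36 libraries gave 9 such genes, of which 4 changed more positively and 5 more negatively from PRE to TR in N22W than in the other 2 arms. Between N22W and N6W in END-CC their median log2 differences were −0.24 and −0.05. None of the 9 had an unadjusted p under 0.05 or separated arms (0 and 0). With 8.87% and 13.4% of all genes doing so, such counts in 9 genes are near the background and say nothing of these genes.

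Genes present in 1 arm and nearly absent from the other were rare. Requiring at most 3 reads in every library of an arm and at least 10 in every library of the other left 2 genes present in N22W and 0 present in N6W. The first had 20.54, 10.67 and 23.09 normalized reads in N22W and 1.334, 0 and 1.459 in N6W. The second had 14.12, 9.026 and 11.54 in N22W and 2.667, 3.714 and 4.377 in N6W. Both had at least 10 reads in all 3 CONTROL libraries, with 12.37 to 26.26 normalized reads for the first and 13.32 to 17.17 for the second, so N6W stood apart in both. Neither met the same rule in END (0 of 2). These 2 genes were found after their values had been seen.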

How the data were processed

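Total RNA of 36 biopsies was sequenced in stranded libraries, per the labels' protocols, after ribosomal RNA had been depleted with human-specific probes. STAR 2.3.0e, R 3.0.2 and the assembly Oar_v3.1 appear in the submitters' processing notes, with no role stated. The counting and the scaling of the reads are not described there, and their tools are not given in the labels. The authors deposited 1 signal per gene and library with 4 significant digits. Each library's values were whole multiples of a single step (100.0% of values up to 100 reads within 0.1 of a whole number), so the deposited signal was read as reads divided by 1 size factor and the reads were recovered. The value of 1 read had a geometric mean of 0.999 over 12 libraries (CONTROL and N22W at PRE and TR) and of 1 over the other 24, so both sets had been scaled apart. All END-CC and END libraries are in the second set.

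Genes with a median value of 0.5 or more over 36 libraries (16417) were kept, and log2(value + 1) was fitted with limma 3.58.1 (R 4.3.3, trended prior) to the 9 END-CC libraries with a mean per arm, without a block since the arms hold different animals. CONTROL adds to the estimate of the spread only. Fold changes on this scale are understated for low values. Sides were compared within animals, with the animal as a block (a term for each animal): the titles give the same animal number to END and END-CC. In the alternative fit of N22W against N6W with a replicate block over both sides, the consensus correlation of an animal's libraries was 0.313. P values are two-sided and adjusted by the Benjamini-Hochberg method over all genes, with a threshold of 0.05. edgeR 4.0.16 and DESeq2 1.42.0 on the recovered reads, other scalings, filters and pseudocounts and each animal left out were alternatives. The scripts were tested on simulated data.

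The groups, gene lists and the rule for named genes (the smallest p in each direction, 2 genes each, where none passes) were chosen with earlier results of these data known. The level classes, the position of CONTROL, genes present in 1 arm, equal depth and scaling by read totals were added once the data were known. Lists of named pathway and cell type genes were planned and not run, since 0 of 25197 identifiers matched the 35057 entries of the name table (ARS-UI_Ramb_v3.0). For the same reason no sequence or coordinate is printed.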

Additional observations from a re-analysis of the deposited data

How the results depend on the processing

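With 3 animals per arm the number of genes past the threshold depended on the tool and on single animals. For N22W against N6W in END-CC limma called 0 genes, and 67 were called by DESeq2 and 25 by DESeq2 without independent filtering, an alternative added after the data had been examined. All 67 and all 25 were separated between the arms. Of the 67, 42 were among the genes that fell over release (62.7%, beside 24% of the genes with an adjusted p). With 1 animal left out limma called 0 to 1 genes, the 1 without CONTROL 2902, and 880 (without 2913) to 1787 (without 2915) had an unadjusted p under 0.05. For the slope over weeks DESeq2 called 153 of 10988 genes. Without independent filtering it called 99 of 16388, 14 with a positive and 85 with a negative slope. Limma with 1 animal left out called 0 to 3, the 3 without 2915, with 844 (without 2913) to 1634 at an unadjusted p under 0.05. For the difference between sides limma called 0 to 1, the 1 without 2908, with 526 to 1120 at an unadjusted p under 0.05 (1120 without 2908, 1090 without 2909). Without the replicate block it called 0, with 308 at an unadjusted p under 0.05. With a replicate block over both sides, N22W against N6W in END-CC gave 0 genes, with 1223 at an unadjusted p under 0.05, so the block changed no call. TMM scaling, a pseudocount of 0.5, no filter, a mean of at least 10 and the 6 libraries alone also gave 0 genes in limma, with 1199 to 1571 at an unadjusted p under 0.05. Genes with separated arms numbered 3275 to 4362 with 1 animal left out, when 2 animals face 3. The 4 named genes kept their direction in all 18 alternatives. They were chosen for separated arms, so leaving out an animal could not turn their direction, and those alternatives do not test it. DESeq2 with its independent filtering gave none of these 4 an adjusted p. Without independent filtering DESeq2 called 3 of them, with adjusted p of 0.00916 (ENSOARG00000010709), 6.85e-05 (ENSOARG00000012593) and 0.000126 (ENSOARG00000007446), and gave 0.0532 for ENSOARG00000004819.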
